A study of Mus musculus with 6 samples.

Results

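The delta protocadherins are cell surface proteins of the cadherin superfamily that are each encoded by a gene of their own, outside the clustered alpha, beta and gamma protocadherin arrays. The family was taken by gene symbol as 10 genes, Pcdh1, Pcdh7, Pcdh8, Pcdh9, Pcdh10, Pcdh11x, Pcdh12, Pcdh17, Pcdh18 and Pcdh19, out of 54115 genes with quantified transcripts. All 10 had quantified transcripts, and 9 passed the filter of 5 or more reads in 2 or more libraries that left 17152 genes to test. Pcdh8 did not pass it.

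Protocadherins span the membrane once and hold cells of like kind together weakly through their extracellular cadherin repeats, mostly by binding the same protocadherin on the facing cell. The delta-1 members (Pcdh1, Pcdh7, Pcdh9 and Pcdh11x) carry a tail motif that binds protein phosphatase 1, and most of the delta-2 members (Pcdh8, Pcdh10, Pcdh17, Pcdh18 and Pcdh19, with Pcdh12 often set beside them) carry a motif that recruits the WAVE regulatory complex, which drives branched actin assembly. The family is best known from the developing brain, where its members sort cells and guide axons, and several members are also made in mesoderm, epithelia and vessels.

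The cells were satellite cells, which are muscle stem cells under the basal lamina of the fibre, taken without injury from hindlimb muscle of C57BL/6J mice aged 6 to 8 weeks. Pax7KR mice were homozygous for K193R, which puts arginine in place of the acetylated lysine 193 of the transcription factor PAX7. The allele was made by CRISPR/Cas9 in zygotes, is carried in every cell of the mouse, and was compared with wild-type littermates (Pax7WT). Cells were sorted as α7-INTEGRIN+ CD34+ and CD31- CD11b- SCA-1- CD45-, 15 ng of RNA went into each library, and each genotype had 3 libraries. How many mice went into a library is not given in the sources used here, so p-values measure the spread between these libraries.

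The libraries held 17822367 to 27908054 estimated reads. All 11 satellite cell markers had reads in every library. Pax7 itself, whose allele differs at a single residue and whose RNA therefore does not check the genotype, stood at 1410 to 1666 CPM (reads scaled to a common library size with TMM factors). Markers that the sort removes were low but present, with Ptprc (CD45) at 0.0946 to 1.27, Itgam (CD11b) at 0.452 to 1.29, Ly6a (SCA-1) at 5.53 to 9.41 and Pecam1 (CD31) at 20.7 to 50.4 CPM. In Pax7KR replicate 2 the Y-linked gene Ddx3y was at 52.0 CPM against 117 to 135 CPM in the other libraries, and Xist, the RNA of the inactive X chromosome, was at 0.437 to 2.29 CPM in all 6. All 4 Y-linked genes examined were lowest in that library, and 10 of 14 endothelial markers were highest there. Values without it are given beside the members' results. In bulk RNA, fewer cells that express a gene and less RNA per cell cannot be told apart.

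The question was at which levels these adhesion genes are expressed in satellite cells and whether the levels differ between Pax7WT and Pax7KR cells. Pcdh18 and Pcdh7 made up most of the family's RNA, with 50.6% and 34.9% of the summed TPM (the deposited level per transcript length). Of the 9 genes tested, 7 had a lower and 2 a higher fitted level in Pax7KR cells, and 0 of 9 passed an adjusted p of 0.1 (edgeR's quasi-likelihood test, lowest adjusted p = 0.992). Over all genes tested, 0% passed. The largest fitted differences were those of Pcdh18, with a log2 fold change of -0.75 ± 0.35 (SE), and Pcdh17, with -0.62 ± 0.31 (SE), and in both genes the Pax7WT and Pax7KR values overlapped.

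The sequence just upstream of Pcdh18 and Pcdh17 is shown because these 2 members had the lowest fitted log2 fold changes and because PAX7 binds DNA in part through a homeodomain, whose core is TAAT. The windows run from 250 to 11 bases before the start annotated by RefSeq, on the strand of the gene, and TAAT on either strand (TAAT or ATTA) is in capitals. The coordinates are of GRCm38.p6, chr3:49757327-49757566 on the minus strand for Pcdh18 and chr14:84443313-84443552 on the plus strand for Pcdh17.
Pcdh18: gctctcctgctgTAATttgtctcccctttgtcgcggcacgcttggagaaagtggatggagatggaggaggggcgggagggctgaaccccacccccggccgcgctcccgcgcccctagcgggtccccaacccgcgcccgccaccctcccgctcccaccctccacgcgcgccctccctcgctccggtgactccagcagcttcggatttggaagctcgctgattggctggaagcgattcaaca
Pcdh17: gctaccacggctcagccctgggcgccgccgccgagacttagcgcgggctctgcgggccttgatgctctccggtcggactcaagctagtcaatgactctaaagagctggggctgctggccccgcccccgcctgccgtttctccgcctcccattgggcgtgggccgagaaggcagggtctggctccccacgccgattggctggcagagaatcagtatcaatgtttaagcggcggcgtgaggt
The Pcdh18 window held 1 TAAT and the Pcdh17 window held 0, while 54.2% of the 32851 windows of the same length in the RefSeq table held at least 1. Both windows were rich in GC, at 67.5% and 65.8%, against a median of 52.1% over all windows. Windows of 7 of the 10 members were examined, and those of the other members were not searched. Besides Pcdh18, the Pcdh8 window held 1 TAAT, and the windows of Pcdh7, Pcdh9, Pcdh10, Pcdh17 and Pcdh19 held 0. The paired homeodomain motifs TAATNNATTA and TAATNNNATTA occurred in 0 of the windows of these 7 members and in 0.384% and 0.447% of all windows. These letters are a description of the windows, and no binding was measured here.

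In the genome the 10 genes lie on 5 chromosomes. Pcdh10 (chr3:45378398-45435623) and Pcdh18 (chr3:49743296-49757325) are 4.31 Mb apart on chromosome 3. Pcdh8 (chr14:79766775-79771312), Pcdh17 (chr14:84443563-84539002) and Pcdh9 (chr14:93013410-93890679) lie on chromosome 14, Pcdh7 (chr5:57717967-58133230) lies on chromosome 5, and Pcdh11x (chrX:120290259-120910619) and Pcdh19 (chrX:133582860-133688987) lie on the X chromosome. Pcdh1 (chr18:38185914-38212053) and Pcdh12 (chr18:38267089-38284402) are the members closest to each other, 55.0 kb apart on the same strand. The genes differ in span, from 4.54 kb for Pcdh8 to 877 kb for Pcdh9, and Pcdh18 packs its exons into 14.03 kb. Of the 2 genes on chromosome 3, Pcdh18 had the highest mean TPM of the family and Pcdh10 the second lowest.

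Mean TPM over the 6 libraries was 44.9 for Pcdh18, with a range of 24.3 to 62.3, and 30.96 for Pcdh7, with a range of 27.9 to 37.0. Pcdh18 was above Pcdh7 in 5 of 6 libraries, all but Pax7KR replicate 1, so their ranges overlapped. Far below them came Pcdh9 at 5.07, Pcdh17 at 2.60, Pcdh1 at 1.63, Pcdh19 at 1.33 and Pcdh11x at 1.26, and then Pcdh12 at 0.541, Pcdh10 at 0.338 and Pcdh8 at 0.0235. Along this order the ranges of neighbours were separate at 2 places, between Pcdh7 and Pcdh9 and between Pcdh10 and Pcdh8. The other neighbours overlapped. Without Pax7KR replicate 2 the ranges were separate at 4 places. Some low levels rested on few reads. In Pax7WT replicate 2, 1.43 of the 2.09 TPM of Pcdh19 came from 2.57 reads on a transcript of 335 bases. For Pcdh10, a transcript of 634 bases gave 0.511 of 0.636 TPM in Pax7KR replicate 1 from 3.17 reads. It gave 0.343 of 0.470 TPM in Pax7KR replicate 3 from 2.06 reads. The order was the same when CPM was divided by average transcript length. That length is computed from the deposited TPM, so the match was nearly fixed in advance and is no separate check. Among all genes tested, Pcdh18 and Pcdh7 were at percentiles 79.7 and 71.4 of mean TPM, and the next member, Pcdh9, at percentile 38.2.

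**Figure D1:**
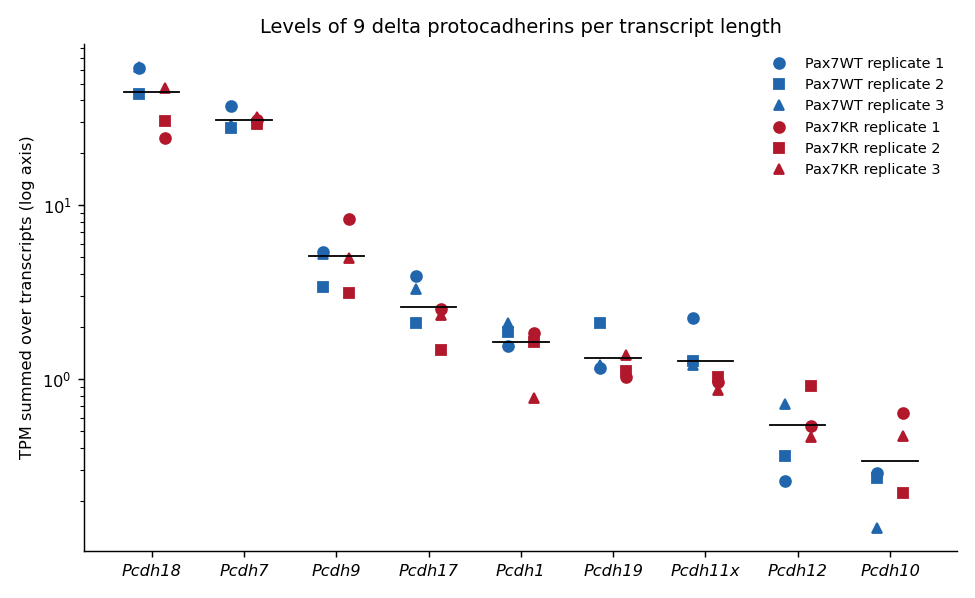
TPM (log axis) of the 9 delta protocadherins tested, ordered by mean, with blue for Pax7WT, red for Pax7KR, a symbol for each replicate number and a line at the mean of the 6 libraries. Pcdh18 (mean 44.9) and Pcdh7 (mean 30.96) lie above all other members, of which Pcdh9 (mean 5.07) is the highest.

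Among the delta-2 members, Pcdh18, which binds the adaptor Dab1 and is needed for cell movement in the early embryo, held the most reads. It was at 178, 134.6 and 187.8 CPM in Pax7WT replicates 1, 2 and 3 and at 69.97, 82.39 and 144.6 CPM in Pax7KR replicates 1, 2 and 3. Pax7KR replicates 1 and 2 lay below every Pax7WT library, while Pax7KR replicate 3 lay above Pax7WT replicate 2. The means were 166.8 ± 28.3 and 98.99 ± 39.98 CPM (SD, n = 3 each). The log2 fold change of -0.75 ± 0.35 (SE) had an adjusted p of 0.992 in edgeR, and it ran from -1.13 to -0.56 with 1 library left out. The lowest of these was the value without Pax7KR replicate 3, and its adjusted p was 0.158 in edgeR. Without Pax7KR replicate 2 the difference was -0.64. The overlap was between Pax7KR replicate 3 and Pax7WT replicate 2 only, so leaving out either of them necessarily removed it. Of all genes tested, 22.7% did not overlap, in either direction, without Pax7WT replicate 2, and 21.9% without Pax7KR replicate 3.

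Pcdh17, which in neurons acts on axon extension and synapse assembly, was the second delta-2 member by level. It was at 25.8, 14.56 and 22.17 CPM in Pax7WT replicates 1 to 3 and at 16.36, 8.964 and 15.7 CPM in Pax7KR replicates 1 to 3. Replicate 2 was the lowest library in either genotype, and Pax7WT replicate 2 was below Pax7KR replicates 1 and 3. The means were 20.85 ± 5.73 and 13.67 ± 4.09 CPM (SD, n = 3 each). The log2 fold change was -0.62 ± 0.31 (SE) with an adjusted p of 0.992 in edgeR and a range of -0.82 to -0.39 with 1 library left out. The value nearest 0, -0.39, was that without Pax7KR replicate 2.

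Several lists differed in Pax7WT replicate 2. The summed CPM of 10 immediate early and heat shock genes, which respond to tissue dissociation, was 26320 in Pax7WT replicate 2 against 32830 to 42990 in the other 5 libraries. That library also had the lowest Pax7WT values of Pcdh18, Pcdh17, Pcdh7, Pcdh9, Pcdh11x and Pcdh19. Pcdh1 and Pcdh10 instead had their highest values of all 6 libraries there, at 4.798 and 0.9032 CPM. Of the 10 response genes, 8 were lowest there. The heat shock genes Hspa1a and Hspa1b were not, at 4156 and 5259 CPM. In the other libraries they were at 3961 to 5883 and 4671 to 7404 CPM. The summed CPM of satellite cell, endothelial, fibro-adipogenic and tenocyte markers was also lowest in it, at 6999, 363, 2082 and 42.7. In the other libraries these sums were at least 7197, 371, 2140 and 49.1. Of the single markers, 2 of 11, 3 of 14, 2 of 10 and 3 of 6 in turn were lowest in Pax7WT replicate 2. Of the endothelial markers, 8 were lowest in Pax7WT replicate 1. The endothelial and fibro-adipogenic sums rested on few genes. In Pax7WT replicate 2 Tek was at 184 CPM, and Gsn, Dpt and Col15a1 were at 1056, 571 and 412 CPM. In Pax7WT replicate 2 the sum of smooth muscle and pericyte markers was highest, at 2892 against at most 2675. Of these 10 markers, 6 were highest there. The sum of activation and commitment markers was also highest in Pax7WT replicate 2, at 775 against at most 707. The part of these differences in the members' values was not tested.

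The other delta-2 members were lower. Pcdh19, an X-linked gene whose mutation causes an epilepsy that mostly affects females, was at 6.285, 4.121 and 6.53 CPM in Pax7WT and at 5.642, 5.613 and 7.471 CPM in Pax7KR cells. The groups overlapped throughout, and the fitted log2 difference was 0.14 ± 0.22 (SE), with an edgeR adjusted p of 0.998. It was 0.21 without Pax7KR replicate 2. Its sign turned without Pax7WT replicate 2 (-0.04) and without Pax7KR replicate 3 (-0.01), and with transcript length as an offset in edgeR (-0.37). Pcdh10, known as OL-protocadherin and needed for axon growth in the forebrain, had 13 to 24 reads in a library and 0.615 to 0.903 CPM. The log2 fold change, -0.28 ± 0.47 (SE), had an edgeR adjusted p of 0.998. It was 0.81 with the length offset and -0.34 without Pax7KR replicate 2. Pcdh8, the paraxial protocadherin that is expressed in the embryonic mesoderm before somites form, had 0 to 4 reads in a library. The 4 reads, in Pax7KR replicate 2, were all assigned to a transcript with a retained intron. No difference in Pcdh8 was detectable at this depth.

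Pcdh12, the vascular endothelial protocadherin that ADAM10 cleaves, was at 0.882, 1.242 and 1.803 CPM in Pax7WT and at 1.487, 2.304 and 1.56 CPM in Pax7KR cells. The lowest library was Pax7WT replicate 1 and the highest was Pax7KR replicate 2, with overlap between them. The edgeR adjusted p of 0.998 went with a log2 fold change of 0.45 ± 0.38 (SE), which ran from 0.22 to 0.76 with 1 library left out. Without Pax7KR replicate 2 it was 0.23. Of 14 endothelial markers, 7 were likewise lowest in Pax7WT replicate 1 and highest in Pax7KR replicate 2, and the other 7 were not. Pecam1 was at 20.7, 22.0 and 42.2 CPM in Pax7WT and at 34.5, 50.4 and 26.9 CPM in Pax7KR cells, and Cdh5 (VE-cadherin), like Pecam1 among the 7, was lowest in Pax7WT replicate 1 at 15.6 CPM and highest in Pax7KR replicate 2 at 35.3 CPM. The 14 markers all had reads in every library, and 13 had a higher fitted level in Pax7KR cells and 0 had an unadjusted p under 0.05. Their summed CPM ran from 363 to 451 in Pax7WT and from 395 to 524 in Pax7KR libraries. Tek alone was at 184 to 231 CPM in Pax7WT and at 216 to 221 CPM in Pax7KR libraries. The part of endothelial RNA in the Pcdh12 values was not tested.

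Among the delta-1 members, Pcdh7, which binds the phosphatase inhibitor SET, had the smallest SE. It was at 130.3, 108.2 and 115.8 CPM in Pax7WT and at 105.6, 103 and 111.7 CPM in Pax7KR cells. Pax7KR replicates 1 and 2 lay just below the Pax7WT libraries, and Pax7KR replicate 3 lay between them. The means were 118.1 ± 11.3 and 106.7 ± 4.48 CPM (SD, n = 3 each), and the log2 fold change of -0.15 ± 0.07 (SE) had an edgeR adjusted p of 0.992. It ran from -0.21 without Pax7WT replicate 2 to -0.070 without Pax7WT replicate 1, and was -0.12 without Pax7KR replicate 2. With transcript length as an offset in edgeR the log2 difference was smaller, at -0.09 ± 0.11 (SE). In TPM, which is not scaled with TMM factors, the means were 31.3 ± 4.97 in Pax7WT and 30.7 ± 1.33 in Pax7KR cells (SD, n = 3 each). Of the 31-base words in its transcripts, 20.7% also occur in 4932441J04Rik, a noncoding gene on the opposite strand that held 1 to 19 reads in a library.

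Pcdh9, a delta-1 member of cortical and retinal neurons, was at 9.996, 7.282 and 10.92 CPM in Pax7WT and at 11.33, 6.869 and 8.275 CPM in Pax7KR cells. Replicate 2 was again the lowest library of each genotype, and the groups overlapped. The fitted log2 difference of -0.10 ± 0.21 (SE) had an edgeR adjusted p of 0.998, and it was 0.16 with the length offset, 0.02 without Pax7WT replicate 3 and 0.06 without Pax7KR replicate 2.

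Pcdh1, a protocadherin of airway epithelium that binds SMAD3, was at 3.712, 4.798 and 4.337 CPM in Pax7WT and at 4.198, 3.686 and 1.797 CPM in Pax7KR cells. Pax7KR replicate 3 was lowest, with 38 reads, and the other Pax7KR libraries lay at or near the Pax7WT values. The fitted log2 difference was -0.40 ± 0.30 (SE), with an edgeR adjusted p of 0.992, and leaving out 1 library moved it between -0.63 and -0.11, with -0.51 without Pax7KR replicate 2. Pcdh12, the member closest to it in the genome, had a fitted difference of the other sign.

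Pcdh11x, the X-linked delta-1 member of brain, was at 5.182, 2.484 and 3.606 CPM in Pax7WT and at 3.674, 2.764 and 3.026 CPM in Pax7KR cells. The Pax7KR libraries lay inside the Pax7WT range, and the fitted log2 difference of -0.26 ± 0.29 (SE) had an edgeR adjusted p of 0.998. It was -0.18 without Pax7KR replicate 2 and 0.05 without Pax7WT replicate 1. In TPM Pcdh11x was at 2.23, 1.27 and 1.21 in Pax7WT and at 0.966, 1.02 and 0.869 in Pax7KR cells, with no overlap. Among all genes tested, 2.78% did not overlap in TPM and were lower in Pax7KR cells. With transcript length as an offset the fitted difference was -0.79 ± 0.30 (SE) on the log2 scale, with an edgeR adjusted p of 0.961. From its protein-coding transcripts alone it was 0.59 ± 0.46 (SE), with an edgeR adjusted p of 0.980.

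**Figure D2:**
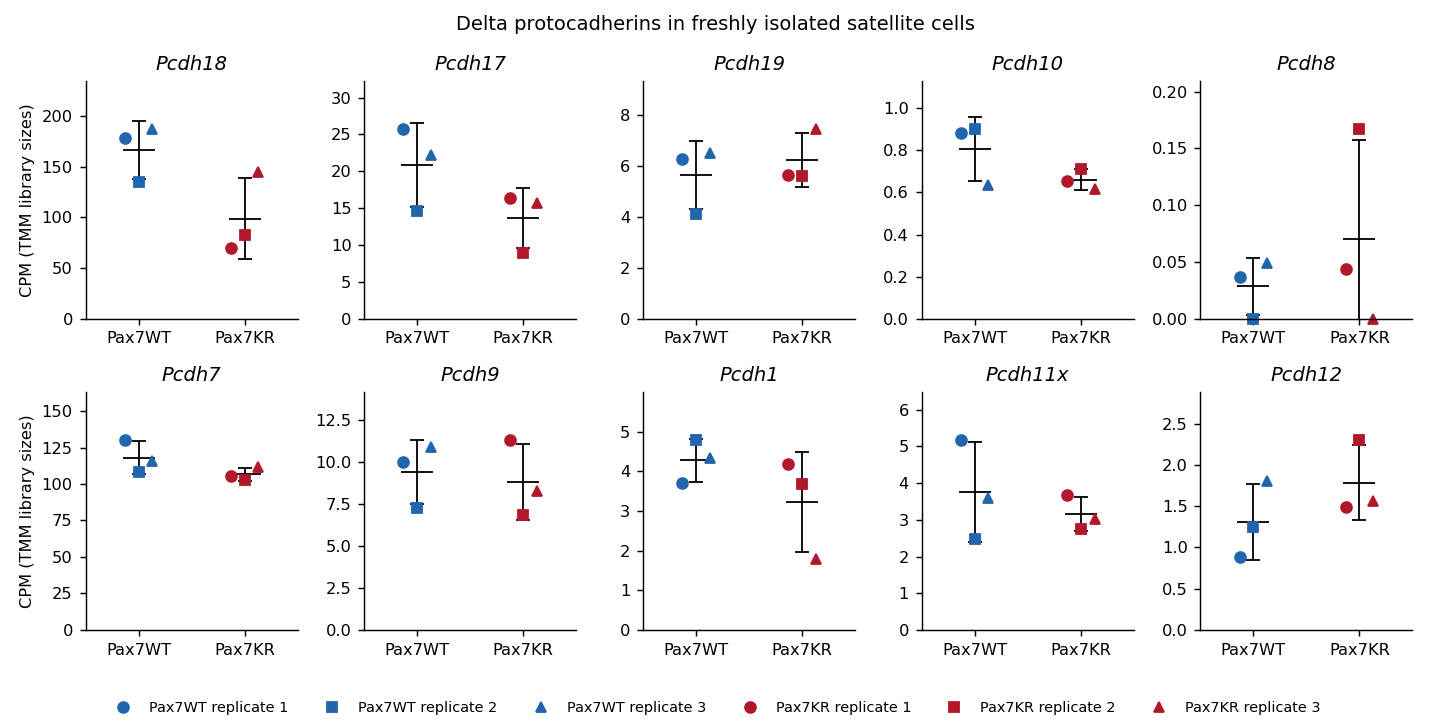
CPM with TMM library sizes (each panel with its own axis from 0) of the 10 delta protocadherins in 3 Pax7WT (blue) and 3 Pax7KR (red) libraries, with symbols for replicate numbers, a line at the mean and bars of 1 SD. In every panel the genotypes overlap, and for Pcdh18 only Pax7KR replicate 3 (144.6) lies above the lowest Pax7WT library (134.6).

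Pcdh18 and Pcdh7, the members with the most reads, were compared with each other within libraries, a choice made after their values were seen. The ratio of Pcdh18 to Pcdh7 in TPM was 1.66, 1.56 and 2.15 in Pax7WT and 0.793, 1.04 and 1.48 in Pax7KR cells. The groups did not overlap, and the two-sided exact permutation p of 0.1 is the smallest that 3 against 3 libraries can give. In CPM the same ratio was 1.365, 1.244 and 1.622 in Pax7WT and 0.6628, 0.8002 and 1.295 in Pax7KR cells, where Pax7KR replicate 3 was above Pax7WT replicate 2 (exact permutation p = 0.2). Pcdh18 thus gave 52.6% to 59.3% of the family's summed TPM in Pax7WT and 34.3% to 52.2% in Pax7KR libraries. Without Pax7KR replicate 2 the Pax7KR mean of the TPM ratio was 1.14 against 1.79 in Pax7WT cells. Leaving out a library cannot bring overlap to separate groups, so the exact permutation p necessarily stayed at 0.1, the smallest possible.

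The summed CPM of the 10 members was 361, 278.1 and 353.6 in Pax7WT and 218.9, 216.4 and 294.7 in Pax7KR cells. Pax7KR replicate 3 lay above Pax7WT replicate 2, and the exact permutation p was 0.2. Without Pcdh18 the sums were 183.1, 143.6 and 165.8 in Pax7WT and 149, 134 and 150.1 in Pax7KR cells, with an exact permutation p of 0.3. Without Pax7KR replicate 2 the exact permutation p-values were 0.3 for all members and 0.4 without Pcdh18.

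**Figure D3:**
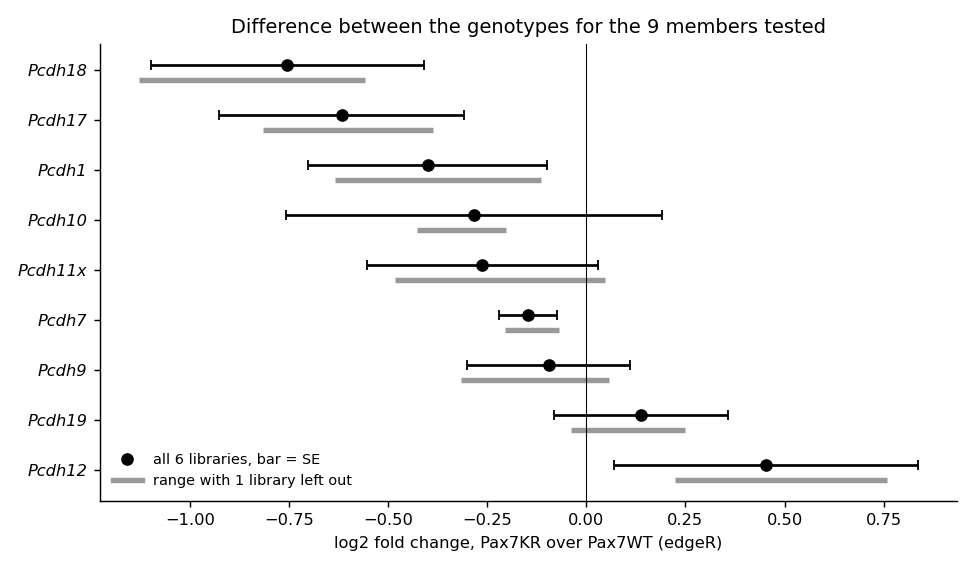
Log2 fold change of Pax7KR over Pax7WT from edgeR for the 9 members tested, with points for the fit on all 6 libraries, black bars of 1 SE and grey bars for the range with 1 library left out. The points run from -0.75 for Pcdh18 to 0.45 for Pcdh12, and the grey bars of Pcdh9, Pcdh11x and Pcdh19 cross 0.

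As a family, the 9 genes tested had a median log2 fold change of -0.26, against a median of -0.00 (-0.00375) over all 17152 genes tested, of which 51.0% were lower. At an unadjusted p under 0.05, edgeR passed 0 of 9 members, where over all genes it passed 2.43% as lower and 2.26% as higher in Pax7KR cells. Groups that did not overlap in CPM were found for 0 of 9 members, and for 5.19% of all genes as lower and 5.14% as higher. Without Pax7WT replicate 2, Pcdh7, Pcdh17 and Pcdh18 did not overlap and were lower, where 11.5% of all genes did so with these 5 libraries. Without Pax7KR replicate 2, 0 members had no overlap. Of the lists of other cell types, the 10 smooth muscle and pericyte markers were all lower in the fit, with a median log2 fold change of -0.14 and 0 with an unadjusted p under 0.05. Their summed CPM ran from 2526 to 2892 in Pax7WT and from 2354 to 2592 in Pax7KR libraries. Most of it was Notch3, at 2113 to 2475 and at 2052 to 2218 CPM. Notch3 was thus above Pax7 (1410 to 1666 CPM), and which cells its RNA came from was not tested. Other lists were also uneven, with 8 of 10 myofibre markers lower (median -0.13). All 5 erythroid markers (median 0.66) and 13 of 14 endothelial markers (median 0.35) were higher. The part of these lists in the members' values was not tested.

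Other tools on the same libraries gave smaller unadjusted p-values for a few members, and none passed after adjustment. DESeq2 passed 30 genes, 0.175% of those tested, and 0 of the members. At an unadjusted p under 0.05 it passed Pcdh17 (log2 fold change -0.61 ± 0.23 (SE), DESeq2 adjusted p = 0.906) and Pcdh18 (-0.75 ± 0.36 (SE), DESeq2 adjusted p = 0.999), where 2.00% of all genes passed as lower. Limma-voom passed the same 2 members at that level, where 2.62% of all genes passed as lower, with log2 fold changes of -0.68 for Pcdh17 and -0.82 for Pcdh18 and limma-voom adjusted p = 0.897 for each. With the transcript length as an offset, edgeR passed Pcdh11x, Pcdh17 and Pcdh18 at the unadjusted level, where 2.41% of all genes passed as lower. DESeq2 with that offset passed the same 3 there, where 2.45% of all genes passed as lower, and after adjustment it called 0.262% of all genes and 0 members.

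Use of transcripts was examined because it played no part in choosing the genes. Salmon assigns reads to overlapping transcripts by estimation, so shares of genes with few reads are uncertain, and only the 5 members with 50 or more reads in every library were compared. Pcdh18-201, the leading Pcdh18 transcript with 4 exons and 5168 bases, took 92.3% ± 2.46 of the gene's reads in Pax7WT and 90.5% ± 3.00 in Pax7KR cells (SD, n = 3 each, exact permutation p = 0.5). Pcdh17-201 took 99.6% ± 0.419 and 99.7% ± 0.599 of the reads (SD, n = 3 each, exact permutation p = 1). In both genes nearly all reads thus fell on 1 coding transcript in each genotype.

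Pcdh7-203, the longest Pcdh7 transcript at 8785 bases, took 64.9% ± 4.25 of the gene's reads in Pax7WT and 62.2% ± 3.14 in Pax7KR cells (SD, n = 3 each, exact permutation p = 0.4). The leading Pcdh9 transcript, of 6127 bases, took 72.6% ± 8.85 and 63.8% ± 5.59 (SD, n = 3 each, exact permutation p = 0.3). Pcdh19-202 ran from 34.6% to 96.5% in Pax7WT and from 51.8% to 86.0% in Pax7KR libraries (exact permutation p = 0.6), the widest spread of the 5. Adjusted over the 5 genes the exact permutation p-values were 0.75 or 1, and the smallest that 3 against 3 libraries can give is 0.1.

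Pcdh11x, with 44 to 141 reads in a library, was not among the 5, and its reads were split in another way. Protein-coding transcripts took 32.7%, 63.8% and 30.9% of its reads in Pax7WT and 95.0%, 37.7% and 69.3% in Pax7KR libraries. Transcripts annotated as targets of nonsense-mediated decay took 67.3%, 36.2% and 64.8% in Pax7WT and 0%, 55.6% and 26.1% in Pax7KR libraries. The transcripts differ in length, and the 3 Pcdh11x estimates of the genotype difference, by CPM, with the length offset and from coding transcripts alone, differed in size and sign.

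**Figure D4:**
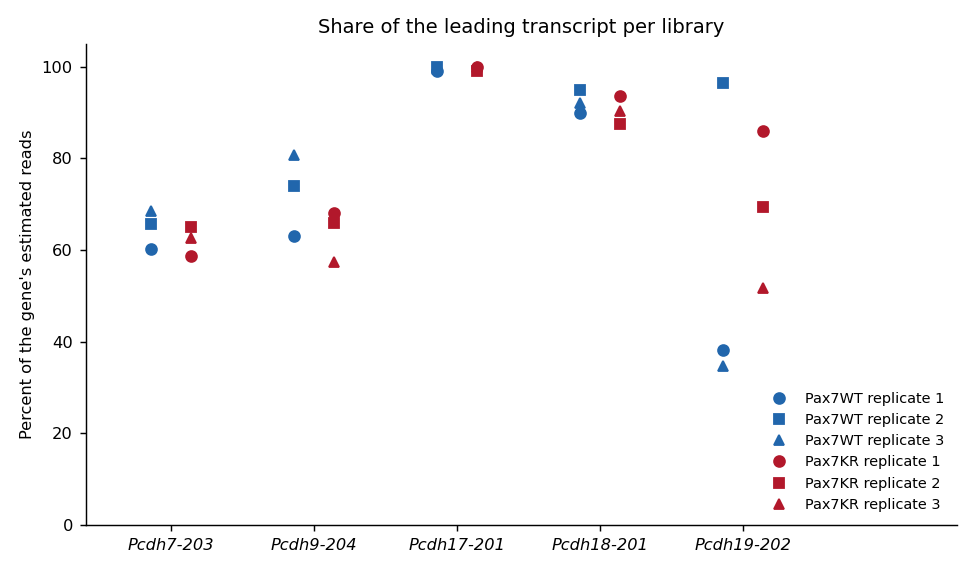
Share of a gene's estimated reads on its leading transcript (percent) in each Pax7WT (blue) and Pax7KR (red) library for the 5 members compared. Pcdh17-201 lies at 99.0% or above and Pcdh18-201 between 87.6% and 94.9%, while Pcdh19-202 runs from 34.6% to 96.5%.

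Partner genes were examined next. Of 22 genes for intracellular and cis partners (the WAVE complex with Rac1, protein phosphatase 1 subunits, Set, Taok2, Mapk14, Smad3, Cdh2, Adam10 and Dab1), 21 were tested, 12 were lower and 9 higher in Pax7KR cells, and the median log2 fold change was -0.00 (-0.00491). None of the 21 had an unadjusted p under 0.05 in edgeR, and their summed CPM was 2089 to 2144 in Pax7WT and 2113 to 2128 in Pax7KR libraries. The smallest unadjusted p-values belonged to Abi1, a WAVE complex subunit (log2 fold change 0.10), Adam10, the protease that cleaves several protocadherins (0.09), and Wasf1, the WAVE protein of neurons (0.58). Abi1 was the only partner without overlap, at 85.0 to 90.1 CPM in Pax7WT and 91.6 to 99.8 CPM in Pax7KR cells, against 5.14% of all genes in that direction. Dab1, named here after its values were seen as the partner that was not tested, had 0 to 4 reads in a library, while Pcdh18, whose tail it binds, was the highest member of the family.

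Of 8 other protocadherin-like genes outside the clusters, 7 were tested. Fat4, the giant cadherin that is a receptor for Dchs1, had the smallest p, at 65.3, 64.1 and 75.7 CPM in Pax7WT and 80.6, 109.7 and 107.6 CPM in Pax7KR cells. Its groups did not overlap, as for 5.14% of all genes in that direction. The log2 fold change was 0.54 ± 0.12 (SE) with an adjusted p of 0.959 in edgeR. Next came Fat1, a related giant cadherin, with a log2 fold change of 0.14, and Pcdh20 with 0.67. Pcdh20 stood at 6.12 CPM in Pax7KR replicate 2 and at 1.51 to 2.24 CPM in the other 5 libraries. Each gene group held fitted differences of either sign. Among the delta protocadherins 7 were lower and 2 higher, and among these other genes 3 were lower and 4 higher. The difference between the 2 gene groups was not tested.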

How the data were processed

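RNA-sequencing of sorted satellite cells was analysed in 3 Pax7WT and 3 Pax7KR libraries, grouped by their labels. The authors quantified paired reads with salmon (version 1.3.0) against GENCODE transcripts with genome decoys (GRCm38) and deposited estimated counts per transcript, not normalized, with transcript lengths. Deposited TPM values were summed per gene for comparisons of level. The authors' own table of the genotype comparison (DESeq2 version 1.28.1; fold changes and p-values) was not used.

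Identifiers of another GENCODE release (M21) on the same build placed 139791 of 140992 transcripts in genes. The other 1201 held 0.606% of reads and were left out. Sums per gene were rounded. The test was edgeR's (version 4.0.16; TMM, robust quasi-likelihood test, genotype alone) on the 17152 genes that had at least 5 reads in at least 2 libraries, with Benjamini-Hochberg adjustment over them and a cut-off of 0.1. DESeq2 (version 1.42.0) and limma-voom (limma version 3.58.1), other scalings, filters and offsets, a replicate block and leaving out each library were alternatives. R (version 4.3.3) and Python (version 3.11.15) were used. No 2 libraries agreed within sampling noise (chi-square per gene 10.2 or more). Depth ran from 17822367 to 27908054 reads. In simulated libraries of this depth and spread, edgeR recovered 57.0% of 193 genes shifted by 1 on the log2 scale, with 21 unchanged genes called among 16630 genes, and 81.1% of 196 genes shifted by 2.

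The family members and all gene lists were chosen with earlier results of these data known. Named were all members, the 3 partners and the 3 other protocadherin-like genes with the smallest unadjusted p, and markers of the sort and of sex. Cdh5 and Dab1 were added after values were seen. Promoter windows came from RefSeq (GRCm38.p6) for 7 of 10 members.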

Additional observations from a re-analysis of the deposited data

How the results depend on the processing

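The direction of Pcdh1, Pcdh7, Pcdh12, Pcdh17 and Pcdh18 was the same under all 18 alternatives, and 0 members passed an adjusted p of 0.1 under any. The log2 fold change turned to 0.17 (DESeq2 with length offset), 0.16 (edgeR with length offset), 0.02 (without Pax7WT replicate 3) and 0.06 (without Pax7KR replicate 2) for Pcdh9, to 0.82 and 0.81 with the length offset for Pcdh10, to 0.59 (protein-coding transcripts only) and 0.05 (without Pax7WT replicate 1) for Pcdh11x, and to -0.36 and -0.37 (length offset), -0.04 (without Pax7WT replicate 2) and -0.01 (without Pax7KR replicate 3) for Pcdh19. Some lengths behind the offset rested on few reads on short transcripts. For Pcdh10, 3.17 reads on a transcript of 634 bases gave 0.511 of 0.636 TPM in Pax7KR replicate 1. For Pcdh19, 2.57 reads on 335 bases gave 1.43 of 2.09 TPM in Pax7WT replicate 2. For Pcdh9, 6 reads on 354 bases gave 2.38 of 8.37 TPM in Pax7KR replicate 1. The part of these reads in the turned signs was not tested, nor was any other cause. With 1 library left out the range was -0.32 to 0.058 for Pcdh9, -0.48 to 0.047 for Pcdh11x and -0.039 to 0.25 for Pcdh19. Members lower in Pax7KR cells numbered 6 to 8, with 9 or 10 tested.

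Genes called were 30 in DESeq2, 45 in DESeq2 with the length offset, 157 without a filter, and 1 to 32 with 1 library left out (32 without Pax7KR replicate 3). Members with an unadjusted p under 0.05 were 2 in DESeq2, limma-voom, edgeR without robust shrinkage and without a filter, 3 with the length offset in either tool, and 0 to 2 with 1 library left out. The shares of all genes at that level, in either direction, were 3.99% in DESeq2, 5.12% in limma-voom, 4.88% in edgeR without robust shrinkage, 5.70% without a filter, 4.94% and 4.88% with the length offset in edgeR and DESeq2, and 3.16% to 6.19% with 1 library left out. Partner genes at that level were 0 to 1 with 1 library left out (1 without Pax7KR replicate 2). Members without overlap were 1 in TPM, against 12.5% of all genes, and 0 to 3 of 9 with 1 library left out, against 17.8% to 22.7% of all genes. Separate neighbours in the order of levels were 2 to 4 with 1 library left out.

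Same-numbered libraries did not deviate together (correlations 0.00176, 0.0447 and -0.0558 over genes), so the numbers were not taken to pair the libraries. With a replicate block edgeR called 13 genes and passed 2 members at an unadjusted p under 0.05, Pcdh17 and Pcdh18, with edgeR adjusted p = 0.17 and 0.999, where 4.33% of all genes passed. The summed levels and ratios without Pax7KR replicate 2, chosen after seeing the data, kept their direction. For the TPM ratio, whose groups did not overlap with all libraries, this was fixed in advance. Depth limits Pcdh8 and Pcdh10 most.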
